A study of Mus musculus with 2 samples.

Results

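The expression of 7 genes of the tumour necrosis factor (TNF) receptor superfamily was compared in murine CD8+ T cells stimulated 2 times in vitro and in those stimulated 1 time. They comprise the costimulatory receptor genes Cd27, Tnfrsf4 (OX40), Tnfrsf9 (4-1BB) and Tnfrsf18 (GITR), the TNF receptor genes Tnfrsf1a and Tnfrsf1b, and the death receptor gene Fas. Members were the probes that the platform annotation assigns to exactly 1 of these 7 gene symbols and that had a value on both arrays. There were 8 such probes among the 21427 with both values and the 21919 in the table, with 2 for Tnfrsf9 and 1 for each other gene, and 0 member probes lacked a value.

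Both arrays carried 2 channels, with total RNA of pmel CD8+ cells after 2 stimulations in channel 2 and after 1 stimulation in channel 1. The pmel mouse is transgenic for a T cell receptor that recognises the melanocyte antigen gp100, and both stages shared this transgene. The labels do not give the stimulus, the time after it, the number of mice or the age. The 2 arrays form 1 group, array 2 being labelled a repeat. Nothing says that its RNA came from another culture, so errors and p-values given here cover the variation between hybridisations, possibly technical only.

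Receptors of this family are surface proteins that bind trimeric ligands of the TNF family. The costimulators and Tnfrsf1b recruit TRAF adaptor proteins, which lead to NF-kappaB and to T cell survival and expansion. Fas and Tnfrsf1a carry a death domain in the cytoplasm, through which Fas recruits FADD and caspase-8 and triggers apoptosis. CD27 is present on resting T cells, while OX40, 4-1BB and GITR are induced on CD8+ T cells by stimulation through their antigen receptor.

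Each value is the deposited log ratio of the 2 channels for a probe, taken as base 2, which the sources used here do not state. The numerator is not stated either. Channel numbers do not settle it. Titles name the cells after 1 stimulation first, so 1 stimulation over 2 is the likely order, on that basis alone. A negative value would then be RNA more abundant after 2 stimulations and a positive value RNA more abundant after 1 stimulation, and the sides swap in the other order. Results are given as sides of the ratio. Spot intensities were not used here, so neither the level of a transcript nor the signal behind a ratio is known, and fewer cells of a type and less RNA per cell cannot be told apart.

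The 7 receptor genes did not lie together. Cd27 and Fas were on the positive side on both arrays, Tnfrsf1b was on the negative side on both, the Tnfrsf9 probes disagreed, Tnfrsf18 and Tnfrsf4 were positive on array 2 and within 0.08 of 0 on array 1, and Tnfrsf1a changed sign. No member was called. limma's moderated test fits a linear model to each probe, shares information on variance across probes and applies Benjamini-Hochberg adjustment. It gave 0 of 8 member probes and 0 of 21427 probes at an adjusted p under 0.05, a background of 0%. At an unadjusted p under 0.05 there were 4 member probes, 2 on each side, where the background was 14.9% of all probes. They belonged to Cd27, Fas, Tnfrsf1b and Tnfrsf9. No member probe was at least 2-fold from a ratio of 1 on both arrays on the same side, against 0.275% of all probes on the positive side and 0.579% on the negative side. By sign alone, 3 member probes were positive on both arrays (33% of all probes) and 2 were negative on both (29.3%).

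**Figure D1:**
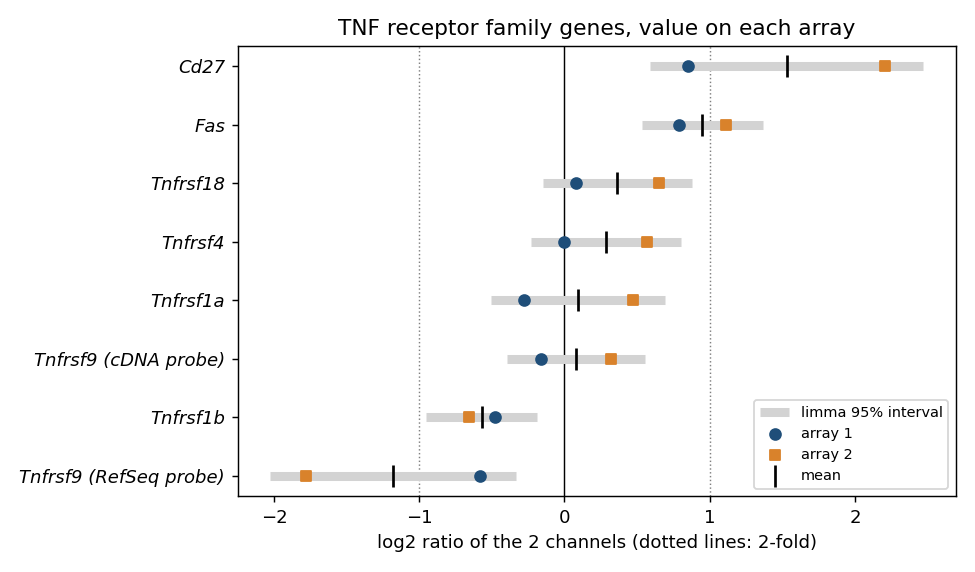
Log2 ratio of each TNF receptor probe on array 1 (circles) and array 2 (squares), with the mean (bar) and limma's 95% confidence interval (grey), in the order of the means. Cd27 and Fas lie to the right of 0 on both arrays, Tnfrsf1b and 1 Tnfrsf9 probe to the left, and the intervals of the other 4 probes include 0.

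Cd27, the receptor for CD70 that sustains the survival of primed T cells, was farthest on the positive side. Its log2 ratio was 0.85 on array 1 and 2.21 on array 2, so both arrays were positive and only array 2 was past 2-fold. The only Cd27 probe is annotated by a sequence that is not among the gene's listed RefSeq transcripts, although its gene ID and symbol match. The mean was 1.53 ± 0.96 (SD, n = 2), a 2.89-fold difference, with a 95% interval of 0.59 to 2.47 and a limma adjusted p of 0.214. Among the 14150 genes with a single symbol and both values, Cd27 ranked 22 from the top, with 0.148% of genes higher. The same side held part of the B cell markers, among them, picked with values known, Cd79b at 0.67 and 1.62 and Cd79a at 0.31 and 1.06 on arrays 1 and 2. Both arrays were positive for 4 of 6 measured B cell markers (29.6% of all genes) and negative for 1 (33.6%), with values from -0.04 to 0.67 on array 1 and from -0.19 to 1.62 on array 2. Activated B cells can make CD27 as well, and the part of such cells in the Cd27 value was not tested.

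Tnfrsf18, the receptor for GITR ligand, read 0.08 on array 1 and 0.65 on array 2. Tnfrsf4, the receptor for OX40 ligand, read 0.00 and 0.57. Both were at 0 or close to it on array 1 and on the positive side on array 2, and their means, 0.365 and 0.285, had limma adjusted p-values of 0.444 and 0.528. In the RefSeq gene table (GRCm38.p6) they lie on chromosome 4 with 0 protein-coding genes between them. The 2 genes differed by 0.08 on each array, less than the median SD of a probe between arrays, 0.170.

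Tnfrsf9, which encodes the costimulator 4-1BB, had 2 probes that disagreed. The probe annotated by a RefSeq transcript of the gene (RefSeq probe) read -0.58 and -1.78, a mean of -1.18 ± 0.85 (SD, n = 2), with an interval of -2.03 to -0.33 and a limma adjusted p of 0.250. The probe annotated by a cDNA that is not among the gene's listed RefSeq transcripts (cDNA probe) read -0.16 and 0.32, with an interval of -0.40 to 0.56. The RefSeq probe was the lowest member probe on both arrays, and only 1.13% of all probes had a mean farther from 0. The cDNA probe changed sign between arrays. Averaged, the gene stood at -0.37 and -0.73, and this average stands for neither probe. Which probe follows the receptor's mRNA cannot be told from these values.

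Fas, the receptor through which Fas ligand kills activated lymphocytes, lay on the positive side on both arrays. It read 0.79 on array 1 and 1.11 on array 2, below the 2-fold line on array 1 and above it on array 2. The mean was 0.95 ± 0.23 (SD, n = 2), a 1.93-fold difference, with an interval of 0.53 to 1.37 and a limma adjusted p of 0.171, the lowest of the 8 member probes. Fas ranked 118 from the top, with 0.827% of genes higher.

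Of the TNF receptor genes, Tnfrsf1b was negative on both arrays and Tnfrsf1a on array 1 only. Tnfrsf1b, the TRAF-binding TNF receptor found mainly on lymphocytes and other blood cells, read -0.48 and -0.66. Its mean was -0.57 ± 0.13 (SD, n = 2), with an interval of -0.95 to -0.19 and a limma adjusted p of 0.231, and its SD was the smallest of the 8 member probes. Tnfrsf1a, the death domain TNF receptor made by most cell types, read -0.28 and 0.47 and so changed sign between arrays. Its mean of 0.095 ± 0.53 (SD, n = 2) had a limma adjusted p of 0.865. On array 1 the 2 receptors differed by 0.20 and on array 2 by 1.13, Tnfrsf1a being the higher on both.

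**Figure D2:**
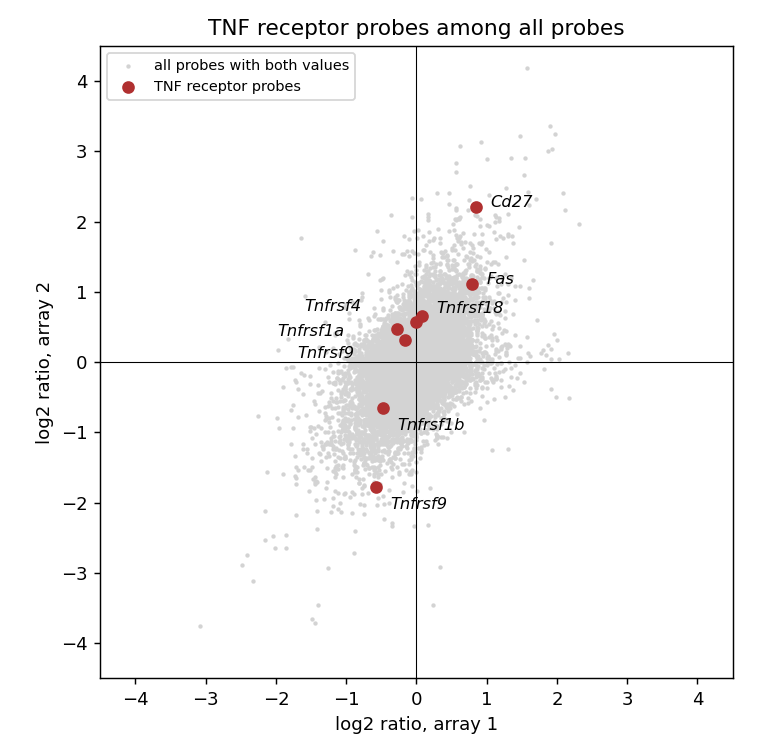
Log2 ratio on array 1 (x axis) and array 2 (y axis) for all 21427 probes with both values (grey) and the 8 TNF receptor probes (red). Cd27 and Fas lie at the edge of the cloud at upper right and the Tnfrsf9 RefSeq probe at its lower edge, while Tnfrsf4, Tnfrsf18, Tnfrsf1a and the Tnfrsf9 cDNA probe lie above 0 on array 2 and within 0.28 of 0 on array 1.

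By gene, with the probes of Tnfrsf9 averaged, the order from the positive to the negative side was Cd27, Fas, Tnfrsf18, Tnfrsf4, Tnfrsf1a, Tnfrsf9 and Tnfrsf1b. Every neighbouring pair in this order had overlapping limma intervals. Cd27 exceeded Fas by 0.06 on array 1 and by 1.10 on array 2, so their order rests on array 2. The averaged Tnfrsf9 and Tnfrsf1b swapped places between the arrays. Neither Tnfrsf9 probe did so alone, the RefSeq probe lying below Tnfrsf1b on both arrays and the cDNA probe above it on both. The step from Fas to Tnfrsf18 was 0.71 and 0.46 on the 2 arrays, a mean of 0.585 ± 0.18 (SD, n = 2). The median of the 7 genes was 0.285, against -0.02 over all genes, and it was 0.00 on array 1 and 0.57 on array 2.

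Most receptor probes varied more between arrays than the median probe. All 8 were farther from 0 on array 2, where this held for 50.0% of all probes and for 69.8% of the 2588 probes with a mean at least 0.5 from 0. The SD between arrays exceeded the median of all probes in 7 of the 8, and in 3 it exceeded the 90th percentile of 0.467, namely Cd27, Tnfrsf1a and the Tnfrsf9 RefSeq probe. Array 2 also had the wider spread over all probes, with an SD of 0.453 against 0.376 on array 1. Across probes, which are not replicates, the arrays correlated at a Pearson's r of 0.494. Dyes are not stated. With the same dyes on both arrays, any bias tied to a dye and a difference in RNA cannot be told apart.

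Upstream sequence is shown for the 4 genes with a probe at an unadjusted p under 0.05, 250 bases ending before a RefSeq transcript start (RefSeq, GRCm38.p6), so that the members on either side can be compared. The windows are chr6:125237028-125237277, minus strand for Cd27, chr19:34290409-34290658, plus strand for Fas, chr4:145246871-145247120, minus strand for Tnfrsf1b, and chr4:150919905-150920154, plus strand and chr4:150927749-150927998, plus strand for 2 starts of Tnfrsf9. They are printed 5′ to 3′ on the gene's strand, and the second Tnfrsf9 window lies within the gene's span, upstream of an internal start. Capitals mark matches on either strand to a kappaB consensus, the AP-1 site TGANTCA, the RUNX core TGTGGT, the GC box GGGCGG and the TATA box TATAAA.
Cd27: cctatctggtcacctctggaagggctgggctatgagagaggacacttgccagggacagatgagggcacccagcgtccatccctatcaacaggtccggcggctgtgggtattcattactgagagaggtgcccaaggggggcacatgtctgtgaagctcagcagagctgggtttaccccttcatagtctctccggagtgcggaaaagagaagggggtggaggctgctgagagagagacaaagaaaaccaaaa
Fas: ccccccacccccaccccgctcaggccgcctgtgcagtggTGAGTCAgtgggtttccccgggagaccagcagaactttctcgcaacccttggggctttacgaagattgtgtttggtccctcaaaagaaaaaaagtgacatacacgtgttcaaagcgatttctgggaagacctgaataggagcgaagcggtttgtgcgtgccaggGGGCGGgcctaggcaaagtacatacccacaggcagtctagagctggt
Tnfrsf1b: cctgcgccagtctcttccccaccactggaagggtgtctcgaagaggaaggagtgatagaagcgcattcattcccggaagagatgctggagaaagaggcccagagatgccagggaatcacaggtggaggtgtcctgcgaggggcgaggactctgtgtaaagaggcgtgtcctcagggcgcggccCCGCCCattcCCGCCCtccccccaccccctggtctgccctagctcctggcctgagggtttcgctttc
Tnfrsf9 upstream start: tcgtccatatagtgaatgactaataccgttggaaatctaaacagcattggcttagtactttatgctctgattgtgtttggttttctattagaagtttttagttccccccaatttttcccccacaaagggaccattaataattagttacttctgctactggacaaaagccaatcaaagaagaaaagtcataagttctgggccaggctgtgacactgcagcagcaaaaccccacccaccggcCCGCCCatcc
Tnfrsf9 downstream start: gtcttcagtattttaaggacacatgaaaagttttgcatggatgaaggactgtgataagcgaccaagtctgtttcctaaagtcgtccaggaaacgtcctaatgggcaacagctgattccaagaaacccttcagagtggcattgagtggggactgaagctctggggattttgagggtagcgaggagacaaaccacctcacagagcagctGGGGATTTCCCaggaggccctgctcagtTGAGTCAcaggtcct

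No motif was matched in every window. Cd27 held no match to any of the 5 motifs. Fas held an AP-1 match whose first base lies 211 bases before the start and a GC box at 47 bases, and Tnfrsf1b held 2 GC boxes at 67 and 57 bases. The downstream Tnfrsf9 start had a pair of overlapping kappaB matches, beginning 43 and 42 bases before it, and an AP-1 match at 15 bases, while the upstream start had only a GC box at 10 bases. Over 32851 such windows of all genes, 7.25% held a kappaB match, 6.75% an AP-1 match, 14.0% a RUNX match, 32.7% a GC box and 12.4% a TATA box. The windows of Tnfrsf4, Tnfrsf18 and Tnfrsf1a held no match. A match is a run of letters and not a measured site, and the arrays did not assay binding.

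Ligand genes were set beside their receptors, since activated T cells make several of them. Both arrays were negative for 3 of the 6 measured ligand genes (33.6% of all genes) and positive for 0 (29.6%), and the list median was -0.325. Tnfsf18, the ligand of GITR, had no singly named probe with both values. Fas and its ligand lay farther apart on both arrays than any other measured receptor and ligand pair. Fasl read -1.06 and -1.49, at least 2-fold on the negative side on both arrays (0.721% of genes), with a limma adjusted p of 0.162. Fas stood above Fasl by 1.85 on array 1 and by 2.60 on array 2.

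Tnfsf4, which encodes OX40 ligand, read -1.40 on array 1 and -0.44 on array 2. Its receptor gene Tnfrsf4 lay above it on both arrays, by 1.40 and 1.01. Cd70, the ligand of CD27, was close to 0 at 0.10 and -0.03, so the Cd27 ratio had no counterpart of its size in its ligand. Tnfsf9, the 4-1BB ligand gene, read -0.67 and -0.21, on the same side as the Tnfrsf9 RefSeq probe. The Tnfrsf9 cDNA probe, at -0.16 and 0.32, was on that side on array 1 only. Tnf (0.02 and -0.44) and Lta (0.40 and -0.52), the ligand genes shared by both TNF receptors, changed sign between arrays.

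**Figure D3:**
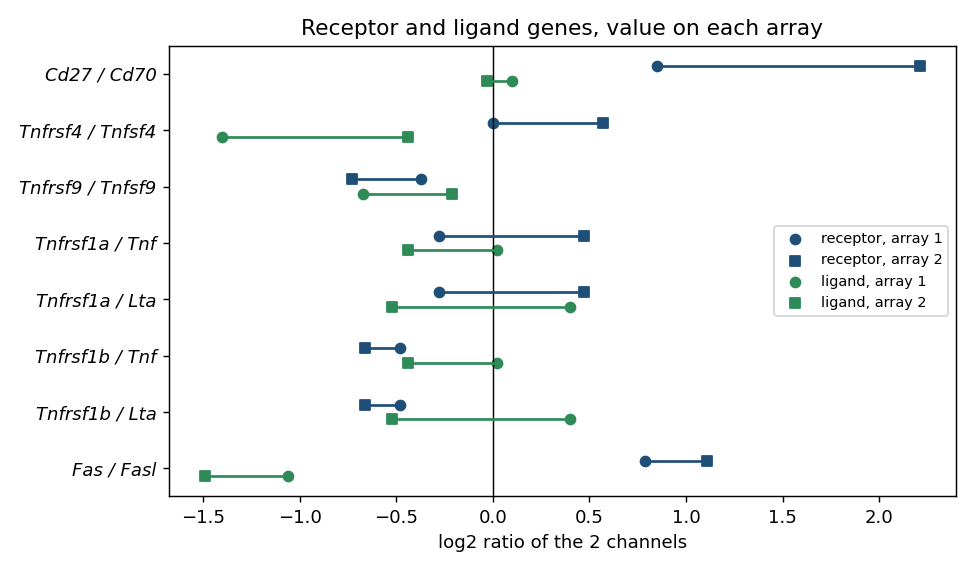
Log2 ratio on each array for each measured receptor and ligand pair, with receptors in blue and ligands in green, circles for array 1, squares for array 2 and a line joining the arrays. For Tnfrsf9 the mean of its 2 probes is drawn. Fas and Fasl lie on opposite sides of 0, Tnfrsf4 lies to the right of Tnfsf4, and the values of Tnf and Lta straddle 0.

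The rest of the family was centred near 0. Among 21 further receptors 17 were measured, of which 4 had positive values (29.6% of all genes) and 4 had negative values (33.6%) on both arrays. Their median was -0.015, and limma called 0 of their 18 probes, with 2 at an unadjusted p under 0.05 (14.9% of all probes). By the mean over both arrays Cd27 and Fas lay above all 17, the highest of which was Tnfrsf13c, the BAFF receptor gene of B cells, at 0.23 and 1.26, so that on array 2 it exceeded Fas. The only one at least 2-fold on both arrays was Tnfrsf11b, the secreted decoy receptor osteoprotegerin, at -1.10 and -1.07 (limma adjusted p of 0.162). Of all genes, 0.721% were at least 2-fold on the negative side on both arrays. The next lowest was Tnfrsf25, the death domain receptor DR3 of T cells, at -0.58 and -1.36. Tnfrsf13c, Tnfrsf25, Tnfrsf10b, Edar, Tnfrsf21 and Ngfr were picked out with their values known. Fas and Tnfrsf25, both death domain receptors, were therefore on opposite sides on both arrays, while Tnfrsf1a and both probes of Tnfrsf10b, the mouse TRAIL receptor gene, changed sign between arrays. Of other death domain receptors in the list, Edar was on the side of Fas at 0.20 and 0.33. Tnfrsf21 (-0.01 and 0.08) and Ngfr (0.39 and -0.09) changed sign.

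Tnfrsf4 and Tnfrsf18, neighbours in the RefSeq order, had close values, as given above. Such closeness was common, as 70 genes lay within a distance of 0.1 over the 2 arrays from Tnfrsf4 and 68 from Tnfrsf18. Ltbr, the lymphotoxin beta receptor gene, lies between Cd27 and Tnfrsf1a on chromosome 6 and read -0.08 and -0.20. Tnfrsf8, which encodes CD30 and is the coding neighbour of Tnfrsf1b on chromosome 4, read -0.34 and 0.11.

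Signalling genes below the receptors were counted by route. Among 24 measured TRAF and NF-kappaB genes, both arrays were positive for 11 (29.6% of all genes) and negative for 7 (33.6%). Their median was 0.0925, and none was at least 2-fold on both arrays (0.233% of all genes on the positive side and 0.721% on the negative). For this list limma called 0 of 27 probes, with 6 at an unadjusted p under 0.05 (14.9% of all probes). Among 14 measured genes of the death domain and caspase route, both arrays were positive for 2 (29.6% of all genes) and negative for 9 (33.6%). Their median was -0.355, and limma called 0 of 15 probes, with 9 at an unadjusted p under 0.05, where 14.9% of all probes were. The list was chosen with earlier results known, and it holds Bid, which caspase-8 cleaves below Fas. At -3.08 and -3.76, Bid was its only gene at least 2-fold on both arrays (0.721% of all genes on the negative side). Bid's limma adjusted p was 0.162.

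Several partners are named for their link to a member, with their values known. Siva1, first described as a binder of the CD27 tail, read -0.62 and -0.44, and Traf5, an adaptor of CD27 and OX40, read 0.42 and 0.73. The other measured TRAF genes, Traf1, Traf2, Traf4 and Traf6, were not positive on both arrays, with Traf2 at -0.21 and -0.31. Fadd, the adaptor of Fas, read -0.13 and -0.16, and Casp8, the caspase it recruits, -0.30 and -0.57, so both were on the side opposite to Fas. Daxx, a Fas-binding protein that also acts in the nucleus, was on the side of Fas at 0.80 and 0.70. Faf1, a gene of the same list, was on the opposite side at -0.42 and -0.51. The 2 probes of Cflar, which encodes the caspase-8 inhibitor cFLIP, disagreed, with -0.48 and -0.27 for one and 0.05 and 1.01 for the other. None of these genes passed limma's test over all probes.

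**Figure D4:**
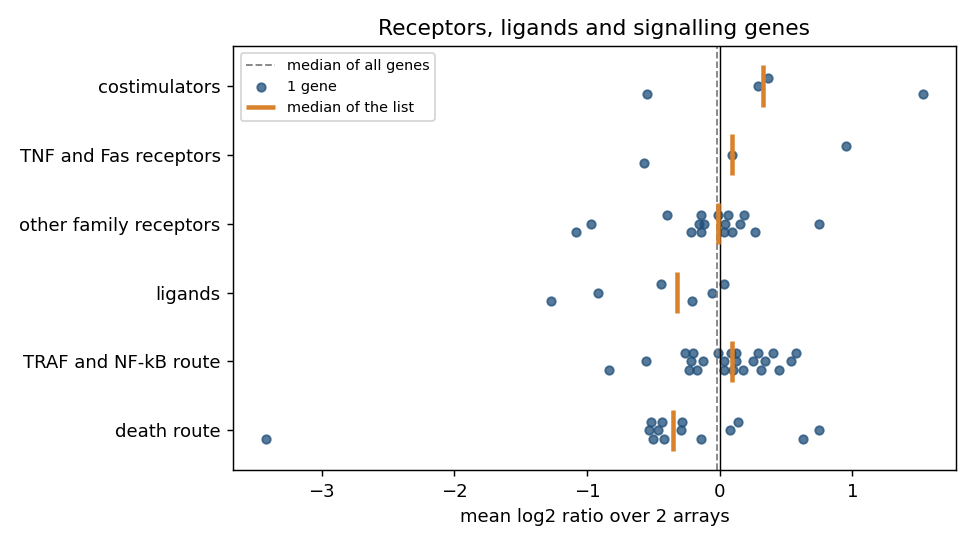
Mean log2 ratio over the 2 arrays of each measured gene (dots) in the receptor, ligand and signalling lists, with the list median (orange) and the median of all genes (dashed, -0.02). The death route lies mostly left of 0 with a median of -0.355 and Bid at its far left, and the ligands have a median of -0.325.

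Genes with the most similar pair of values were looked up by the distance between the 2 array values, over 2 arrays only, so that likeness says little where many genes are near. Within a distance of 0.1 Cd27 had 1 gene, Samhd1 (0.83 and 2.23), a nucleotide hydrolase gene, followed by Acss1 and Acp5 just outside. Fas had 9 genes within 0.1, the nearest being Elf1 (0.78 and 1.10), an ETS transcription factor gene, Gimap4 (0.77 and 1.10), a lymphocyte GTPase gene, and Asap1 (0.77 and 1.16). The other 5 members each had between 47 and 89 genes within that distance. Their nearest were Cdk2ap1, Cirbp and Ubn2 for Tnfrsf4, and Tap2, Lrrc56 and Nme3 for Tnfrsf18. For the mean of the Tnfrsf9 probes they were Art5, Mthfd2 and Stx6, for Tnfrsf1a Fosl2, C030037D09Rik and Nat9, and for Tnfrsf1b Gzmm, Hells and Actl6a.

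Ratios cannot show whether a marker is present, so the cell type in the labels could not be checked by level. Of the CD8 T cell markers (Cd3d, Cd3e, Cd3g, Cd247, Cd8a and Cd8b1), both arrays were positive for 5 of 6 (29.6% of all genes) and negative for 0 (33.6%). Their median was 0.23, on the side of Cd27 and Fas. Markers of CD4 and regulatory T cells, in which Tnfrsf4 and Tnfrsf18 are abundant, stayed between -0.11 and 0.25 in all 4 genes. Myeloid and dendritic markers, a possible source of TNF family ligands, had both arrays negative for 3 of 6 genes (33.6% of all genes) and positive for 1 (29.6%). The 3 measured NK markers were divided, with Klrb1c at -0.77 and -1.88, Ncr1 at -0.27 and -0.25, and Klra8 at 0.86 and 0.06. The part of these cells in the receptor values was not tested.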

How the data were processed

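Total RNA of pmel CD8+ T cells after 2 and after 1 stimulations was hybridised on 2 two-channel arrays. The deposited table holds 1 signed value per probe and array, which was read as a log2 ratio between the channels. The authors' scanning, background correction, normalization and filters are not given in the sources used, nor is the base, taken as 2. The array medians were 0.01 and 0.02, so a general shift between stages would not be seen. Precision is limited by there being 2 arrays. Equal values on both arrays were found for 248 of 21427 probes, so the arrays are not copies.

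Probes were named from the platform annotation, in which 15998 had 1 gene symbol, 288 several and 5633 none. The gene ID and symbol of 15799 of the singly named probes matched the RefSeq table, among them all 8 receptor probes. An intercept over both arrays was tested against 0 with limma 3.58.1 in R 4.3.3 (eBayes, two-sided, Benjamini-Hochberg over 21427 probes, threshold 0.05). Errors are SDs over 2 arrays. A size rule of 2-fold on both arrays was applied beside the test. Gene lists use the mean of a gene's probes. Named genes were all members, their ligands, list genes past the size rule, the 3 genes nearest each member and family neighbours; others are named as picked with values known. The receptors and lists were chosen with earlier results of these data known. The fit was tested on simulated data. Alternatives were median centring, quantile normalization, a robust prior or none, averaging probes by gene, keeping probes measured on a single array, natural logs, another size threshold and leaving out each array.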

Additional observations from a re-analysis of the deposited data

How the results depend on the processing

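With 1 array in place of 2, the count of receptor probes at least 2-fold on the positive side ranged from 0 to 2 and on the negative side from 0 to 1, the higher counts without replicate 1, where Cd27, Fas and a Tnfrsf9 probe pass on array 2. At 1.5-fold on both arrays, and likewise with the values read as natural logs, 2 probes passed on the positive side (Cd27 and Fas), while the negative side stayed at 0. Shares of all probes under these looser rules and on 1 array are not given. These counts therefore show nothing particular to the receptors. Median centring, quantile normalization and 1 value per gene left both counts at 0. limma called 0 receptor probes under each of its alternatives, and no single probe's mean changed sign under another scaling, filter or prior. Over all probes or genes it called 0 as well, except with no prior, where it called 241 of 21420 probes. On array 1 alone Tnfrsf1a (-0.28) and the Tnfrsf9 cDNA probe (-0.16) were negative, against positive means over both arrays. Adjusted p-values of the receptor probes in these limma fits lay between 0.111 and 0.933. The median of the 7 genes ranged from 0.00 without replicate 2 to 0.57 without replicate 1. The test of the ratios against 0 already pairs the 2 stages within each array. With only 1 group, no other paired analysis was possible.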
